A study of Mus musculus and Homo sapiens with 11 samples.

Results

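Prostaglandin synthesis and signalling was followed through 10 genes: the phospholipase Pla2g4a, the cyclooxygenases Ptgs1 and Ptgs2, the prostaglandin E synthase Ptges, the transporter Slco2a1, the dehydrogenase Hpgd and the prostaglandin E2 receptors Ptger1, Ptger2, Ptger3 and Ptger4. They were chosen by symbol as the route of prostaglandin E2 from membrane lipid to its receptors. All 10 were among the 24062 genes listed, and all 10 were among the 13821 with a mean of at least 10 that entered the test. Poly(A) RNA was sequenced from cultured mouse MMTV-ErbB2 cells, a line labelled as breast cancer. The MMTV promoter is a mammary tumour virus promoter used to drive a transgene, here ErbB2, in mammary epithelium. The 3 libraries of the parental line, labelled Par, were set against 3 libraries of the brain metastatic derivative, labelled BrM 2a. Both groups are tumour cells under the same transgene name, grown in culture, and the labels name 1 mouse derivative, so its libraries do not stand for independent metastases. Replicates 1 and 2 of each group carry those numbers in their titles, and the library without a number is called replicate 3.

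Prostaglandin E2 is made in steps. Cytosolic phospholipase A2 frees arachidonic acid from membranes, a cyclooxygenase turns it into prostaglandin H2, and a terminal synthase makes prostaglandin E2 from that. The prostaglandin is taken up by the transporter Slco2a1 and oxidised by Hpgd, which ends its action, or it binds 4 G protein-coupled receptors named EP1 to EP4 on the cell surface. EP2 and EP4 raise cyclic AMP, EP3 mainly lowers it, and EP1 is linked to calcium. The cyclooxygenase of Ptgs2, COX-2, is induced by inflammatory and growth signals, and is widely studied in mammary tumours and in their spread to the brain.

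Values are scaled read counts, that is, reads divided by 1 factor per library. Fold changes are differences of group means of log2 of the value plus 1, tested over all 13821 genes with limma, and a gene was called at a Benjamini-Hochberg adjusted p under 0.05. Nothing in the labels says that replicates came from separate cultures, so each p-value sets a difference only against library-to-library spread, and that spread may be technical. Preparation with either a TruSeq or a NEBNext Ultra kit and growth in either DMEM or RPMI medium are given without saying which library had which, so kit and medium cannot be told apart from the derivative.

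Library totals ran from 29877087 to 46683735 reads. BrM replicate 1 stood apart, in that 3614 and 3654 genes lay at least 2-fold from BrM replicates 2 and 3, against 220 between those 2, which still differed beyond counting noise. The epithelial label held: Epcam, an epithelial adhesion molecule, read 15669 to 22353 in all 6 libraries and Erbb2 30959 to 70490.2, and of 10 epithelial markers 5 were called higher and 2, Ehf and Cdh1, lower. The 10 fibroblast markers summed to 4647 to 16105 in the parental and 224 to 1112 in the BrM libraries, and 4 of the 6 tested were called lower. Dcn was at 0 in every BrM library and Lum and Thy1 stayed at 3 reads or fewer in every library. The 10 macrophage markers summed to 21673 to 40909 and 2410 to 11656, mostly Cd14, while the leukocyte marker Ptprc did not pass 4.88 in any library and C1qa was at 0. Of 4 macrophage markers tested, Cd14 was called lower and Csf1r higher. The 6 mast cell markers summed to 702 to 2276 and 0 to 4.88. Nearly all of that sum was the receptor kinase Kit, the 1 tested, which was called lower, and 4 of the 6 were at 0 in every library. Kit and the fibroblast markers Dcn and Col1a2 reached the mean of 10 only through the parental libraries. Their calls are a description and no support. Summed endothelial markers read 41.5 to 67.2 and 26.8 to 69.6. The 9 brain cell markers summed to 990.2 to 1321 and 2229 to 2440.1, mostly Mbp, and of 4 tested P2ry12, Gfap and Mbp were called higher, while Aqp4, Rbfox3, Mog and Olig2 stayed at 3 reads or fewer in every library. The counts of called markers are to be read against all tested genes, of which 28.1% were called, 12.2% as higher and 15.8% as lower. The part of any of these markers in the results given next was not tested. In bulk RNA, fewer cells that express a gene and less RNA of it per cell cannot be told apart.

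In BrM, 3 of the 4 prostaglandin E2 receptors, COX-1 and the inactivating dehydrogenase fell, while COX-2, its synthase, the phospholipase and the transporter were not called. Of the 10 genes, 5 were called, Ptgs1, Hpgd, Ptger2, Ptger3 and Ptger4, and all 5 were lower in BrM. Over all tested genes 28.1% were called, 15.8% as lower and 12.2% as higher. The median log2 fold change was -1.06 over the 10 genes, also with Ptger3 at its bound, and -0.05 over all tested genes. For 6 genes, the 5 and Ptger1, every BrM library lay below every parental one, which held for 25.7% of all tested genes. Hpgd, Ptger2 and Ptger3 reached the mean of 10 only through the parental libraries, so their counts are a description and no support. On recovered reads, edgeR called the same 5 lower (14.8% of all genes) and DESeq2 called those and Ptger1 (19.5%). The number called lower was 3 of 10 when parental replicate 1 was left out (10.2% of all genes) and 2 when parental replicate 2 was (9.14%). It was 3 with BrM replicate 3 removed (9.89%) and 7 with BrM replicate 1 removed (26.1%).

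**Figure D1:**
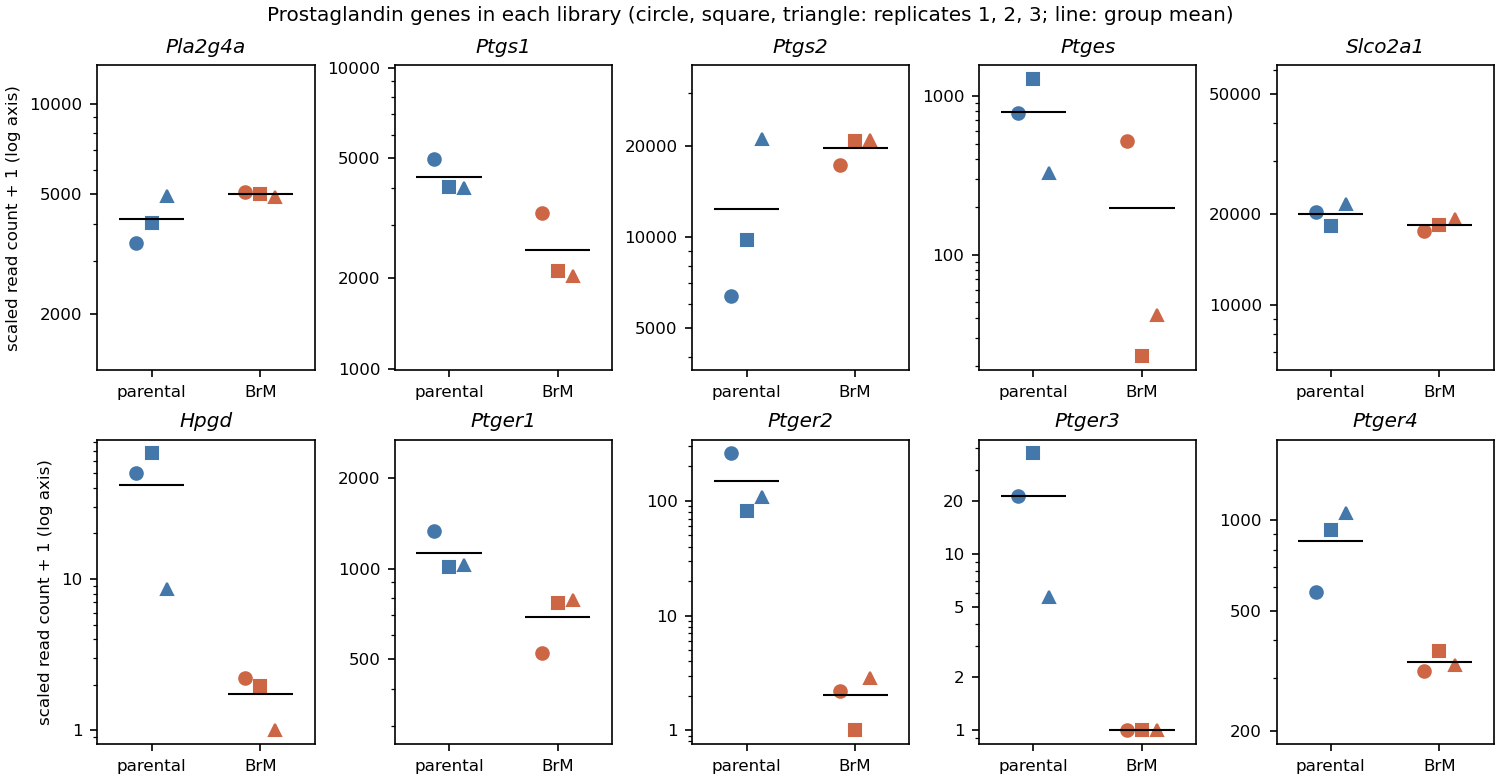
Scaled read count plus 1 (log axis) of the 10 genes in the 3 parental and 3 BrM libraries. Each point is 1 library (circle, replicate 1; square, replicate 2; triangle, replicate 3) and the line is the group mean; Ptger3 sits at 0 reads in all 3 BrM libraries and Ptgs2 spans 6360.3 to 21064 in the parental ones.

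The phospholipase gene that supplies arachidonate did not pass the test. Pla2g4a, which encodes cytosolic phospholipase A2, read 3439, 4029 and 4949 in the parental libraries and 5094, 5028 and 4901 in the BrM libraries. The groups overlapped, since parental replicate 3 stood above BrM replicate 3. The means were 4139 ± 761 (SD, n = 3) and 5008 ± 97.8 (SD, n = 3), and the 1.22-fold difference was not called (log2 fold change 0.29, SE 0.16, adjusted p = 0.215). Pla2g4a lies on chromosome 1 of GRCm38 (chr1:149829618-149961290, minus strand), with Ptgs2 138.74 kb away on the plus strand.

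Ptgs1, which encodes the constitutive cyclooxygenase COX-1 (chr2:36230426-36252272), read 4971, 4004 and 3988 in the parental libraries and 3292, 2114 and 2036 in BrM. Every BrM library lay below every parental one, and BrM replicate 1 lay nearest to them. The mean fell from 4321 ± 563 to 2481 ± 704 (SD, n = 3 each), 1.78-fold (log2 fold change -0.83, SE 0.22, adjusted p = 0.0330). The call was the least firm of the 5: it was lost without any 1 of 5 libraries, at an adjusted p of 0.0727 to 0.111 when any parental library was removed and of 0.110 and 0.106 when BrM replicate 2 or 3 was.

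Ptgs2 (chr1:150100031-150108227, plus strand) was the most spread of the abundant genes. It read 6360.3, 9762 and 21064 in the parental libraries and 17265, 20775 and 20991 in BrM. The BrM libraries lay close together, but parental replicate 3 stood above all of them, so the groups overlapped. The means were 12395 ± 7697 and 19677 ± 2091 (SD, n = 3 each). The 1.79-fold higher mean in BrM was not called (log2 fold change 0.84, SE 0.42, adjusted p = 0.180). Without parental replicate 3 the difference was 2.49-fold and was called (adjusted p = 0.0172), so 1 library decided it.

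The promoter of Ptgs2 is shown because a list of its transcription factors, counted further on, holds the C/EBP genes. The RefSeq promoter table for GRCm38.p6 held 9 of the 10 genes, all but Ptger1. The 250 bases before the Ptgs2 start (chr1:150099781-150100030, plus strand) hold 1 match to TTGCGCAA, an 8-base palindromic C/EBP motif, in capitals, at position -69 from the start.
Ptgs2: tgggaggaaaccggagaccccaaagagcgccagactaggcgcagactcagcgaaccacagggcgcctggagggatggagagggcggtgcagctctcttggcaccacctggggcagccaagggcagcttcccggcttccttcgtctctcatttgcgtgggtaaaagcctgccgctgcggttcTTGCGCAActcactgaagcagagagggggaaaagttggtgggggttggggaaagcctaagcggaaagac
That motif occurs in 0.164% of all 32851 promoter windows of this length. On both strands of windows reaching 50 bases into the gene, TGACG, part of the cyclic AMP response element, lay at position 14 and CACGTG, an E-box, at position 17, overlapping it. They occur in 20.8% and 7.15% of all such windows. Both were in the transcribed part as set by the RefSeq start used here, and with another start their positions would differ. TGACGTCA, TATAAA and TGAGTCA were not in the Ptgs2 window. A match is a run of letters and no evidence that a factor binds there.

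Of the 3 C/EBP genes in that list, 2 fell. Cebpd fell from 4433 ± 706 to 597 ± 427, 8.57-fold (adjusted p = 0.00419), and Cebpb fell from 8790 ± 2598 to 2486 ± 561, 3.47-fold (adjusted p = 0.00497; SD, n = 3 each). Cebpa, at 1.24-fold lower, was not called (adjusted p = 0.492), and neither was Ptgs2 itself.

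Ptgs2os, a transcript of the opposite strand whose gene begins 67 bases upstream of Ptgs2 and runs away from it, read 16.3, 37.1 and 17.9 in the parental libraries and 68.4, 86.1 and 102 in BrM. Its groups did not overlap, and the 3.69-fold difference was called (adjusted p = 0.0176). The call did not hold under every alternative, where the adjusted p ran from 0.00103 to 0.185. Ptgs2os was chosen after its values were seen.

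Ptges encodes the inducible microsomal prostaglandin E synthase, the enzyme usually coupled to COX-2 (chr2:30889471-30929863, minus strand). It read 779.5, 1273 and 324 in the parental libraries and 521, 22.0 and 41.0 in BrM. BrM replicates 2 and 3 were far below the rest, whereas BrM replicate 1 lay above parental replicate 3. The means were 792 ± 474 and 195 ± 283 (SD, n = 3 each), an 8.62-fold lower value that was not called (log2 fold change -3.11, SE 1.19, adjusted p = 0.0979). Without BrM replicate 1 it was 22.1-fold lower and called (adjusted p = 0.00209), and without BrM replicate 2 it was 4.63-fold lower. The COX-2 to synthase pair therefore differed between BrM libraries: replicate 1 had both, and replicates 2 and 3 had Ptgs2 with little Ptges.

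For the removal of prostaglandin E2, the RNA of its carrier and of its dehydrogenase was measured. Slco2a1 encodes the prostaglandin uptake carrier (chr9:102988712-103096002) and read 20382, 18305 and 21557 in the parental libraries and 17611, 18396 and 19341 in BrM. The groups overlapped at 20081 ± 1647 and 18449 ± 866 (SD, n = 3 each). The log2 fold change was -0.12 (SE 0.12, adjusted p = 0.513), and its sign turned to 0.01 with upper-quartile scaling, which moved the median of all genes by 0.13.

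Hpgd encodes the dehydrogenase that oxidises prostaglandins after uptake (chr8:56294585-56321043). It read 48.8, 66.7 and 7.55 in the parental libraries and 1.22, 0.956 and 0 in BrM. Every BrM library was lower, and parental replicate 3 was the lowest of its group. The reads were 137 in the parental and 2 in the BrM libraries, a ratio of 61.8 once scaled for depth, with an exact 95% interval of 16.8 to 516 for counting error only. The fall was called (log2 fold change -4.23, SE 0.87, adjusted p = 0.0138). The call was lost without parental replicate 1 (adjusted p = 0.0573) or replicate 2 (adjusted p = 0.0563), and the fitted fold moved from 18.8 to 35.6 without replicate 3.

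Of the EP receptors, Ptger2 and Ptger3 were nearly absent from BrM, and Ptger4 fell while remaining detected. Ptger2 encodes EP2, which raises cyclic AMP (chr14:44988195-45003820). It read 258, 80.7 and 108 in the parental libraries and 1.22, 0 and 1.86 in BrM. The BrM libraries held 3 reads in all, and the lowest parental library was far above them. The ratio of pooled values was 140 (exact 95% interval 47.7 to 682), and the fall was called (log2 fold change -6.16, SE 0.63, adjusted p = 0.00112). It was called under all 19 alternatives run. Ptger2 reached the filter only through the parental libraries, so that count is a description and no support.

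Ptger3 encodes EP3, the receptor coupled mainly to inhibition of adenylyl cyclase (chr3:157566892-157645888). It read 20.4, 36.2 and 4.72 in the parental libraries, of which replicate 3 was the lowest, and 0 in all 3 BrM libraries. A floor of 3 reads over the BrM group made it at least 20.8-fold lower, for counting error only. The limma fit called it lower (adjusted p = 0.00987). The fitted log2 fold change, -4.05 (SE 0.75), depends on the pseudocount and is no bound, and it was -4.82 without parental replicate 3. Its mean over the 6 libraries was 10.2, just inside the filter of 10.

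Ptger4 encodes EP4, the other receptor that raises cyclic AMP (chr15:5206661-5244187, minus strand). It read 579, 932 and 1058 in the parental libraries and 316, 369 and 329.7 in BrM. The groups did not overlap, and the means were 856 ± 248 and 338 ± 27.6 (SD, n = 3 each). The fall was 2.45-fold (log2 fold change -1.29, SE 0.26, adjusted p = 0.0133), and it was lost without parental replicate 2 (adjusted p = 0.0595) or BrM replicate 3 (adjusted p = 0.0505). Ptger4 overlaps Ttc33 on the opposite strand over 11676 bases, and the counting strand is not given in the sources used here. Ttc33 read 1013 ± 44.3 and 880.2 ± 88.1 and was not called (adjusted p = 0.343).

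Ptger1 encodes EP1, the calcium-linked receptor (chr8:83666678-83672753). It read 1334, 1011 and 1025 in the parental libraries and 524, 766 and 785 in BrM. The groups did not overlap, yet the 1.64-fold lower mean was not called (log2 fold change -0.71, SE 0.22, adjusted p = 0.0563). It was called without BrM replicate 1 (adjusted p = 0.0388) and with DESeq2 on recovered reads (adjusted p = 0.0210). The counting strand is not given, so whether all of these reads come from Ptger1 was not tested.

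**Figure D2:**
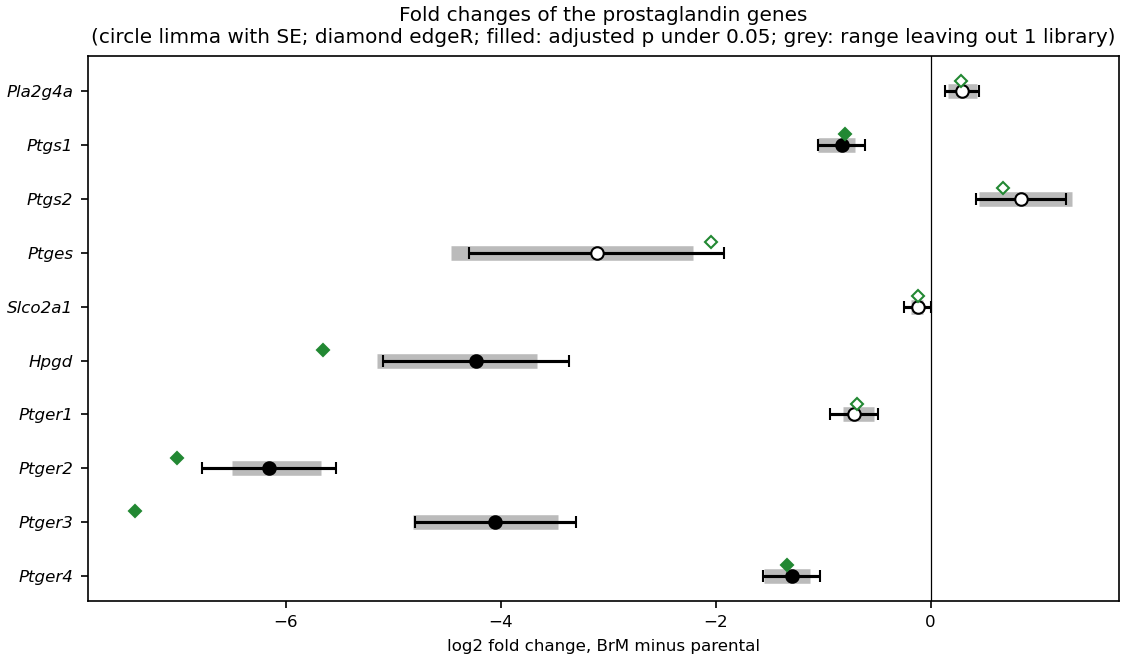
Log2 fold change of each of the 10 genes, BrM minus parental. Circles with bars are the limma value and its SE, diamonds are edgeR on recovered reads, filled symbols have an adjusted p under 0.05 and grey bands span the limma values with 1 library left out. The 5 filled circles all lie to the left of 0; Ptges has the widest SE, 1.19, and Ptger3, with no BrM read, lies at -4.05 in limma and -7.41 in edgeR.

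The promoters of Ptger2 and Ptger3, the receptors with 3 reads or fewer in BrM, are shown to compare their CpG content. Each is the 250 bases before the RefSeq start, on the plus strand, with CG in capitals. They lie at chr14:44987861-44988110 for Ptger2 and chr3:157566626-157566875 for Ptger3.
Ptger2: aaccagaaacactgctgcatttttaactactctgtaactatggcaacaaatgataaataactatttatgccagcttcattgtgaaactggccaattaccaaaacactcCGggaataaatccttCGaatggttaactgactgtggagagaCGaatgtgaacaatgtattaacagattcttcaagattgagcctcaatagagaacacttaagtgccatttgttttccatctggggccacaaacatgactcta
Ptger3: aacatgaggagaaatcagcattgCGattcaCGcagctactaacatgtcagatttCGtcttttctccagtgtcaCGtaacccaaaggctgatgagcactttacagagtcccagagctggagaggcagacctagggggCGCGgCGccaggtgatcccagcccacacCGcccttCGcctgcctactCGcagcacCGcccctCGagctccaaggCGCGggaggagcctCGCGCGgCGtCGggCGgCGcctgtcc
They did not look alike. Ptger2 holds 3 CpG and Ptger3 holds 21, against a median of 6 and quartiles of 2 and 16 over all 32851 windows. The share of G and C was 38% for Ptger2 and 62% for Ptger3. Of all windows, 37.8% hold as few CpG as Ptger2 and 85.2% as few as Ptger3. The other matched genes ranged from 3 for Pla2g4a to 19 for Ptger4, with 9 for Hpgd and 13 for Ptgs2. No DNA methylation was measured.

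Per kilobase of exon, Ptgs2 and Slco2a1 were the most abundant of the 10 genes in both groups. The scaled count per kilobase was 2706 ± 1681 for Ptgs2, 1483 ± 122 for Slco2a1, 1113 ± 145 for Ptgs1 and 648 ± 119 for Pla2g4a in the parental libraries. In BrM, Ptgs2 read 4296 ± 457, Slco2a1 1362 ± 63.9, Pla2g4a 784 ± 15.3 and Ptgs1 639 ± 181, so Pla2g4a stood above Ptgs1 there, within the spread of Ptgs1. The next in BrM were Ptger1 at 127 ± 26.7, Ptger4 at 50.9 ± 4.15 and Ptges at 49.5 ± 72.0, the last pair not apart beyond its spread. Ptger1 and Ptges were neighbours that did not differ beyond their spread in the parental libraries, at 206 ± 33.4 and 201.5 ± 121, and neither did Ptger2 at 28.7 ± 18.5 and Hpgd at 24.4 ± 18.0. With the longest transcript as the length, Slco2a1 and Ptgs2 changed places in the parental libraries, at 2819.6 and 2784 per kilobase.

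The balance of the cyclooxygenases was computed per library. The Ptgs2 to Ptgs1 ratio per kilobase was 1.08, 2.07 and 4.48 in the parental libraries and 4.45, 8.33 and 8.74 in BrM. Parental replicate 3 and BrM replicate 1 were nearly equal, so the groups overlapped (exact two-sided permutation p = 0.2). Their summed level was 3819 ± 1584 and 4935 ± 275 (SD, n = 3 each, exact p = 0.4).

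The 4 receptors summed to 385, 347 and 368 per kilobase in the parental libraries and 144, 196 and 194 in BrM. No library overlapped, and the exact two-sided permutation p of 0.1 is the smallest that 3 against 3 allows, so no such sum can pass 0.05. Ptger1 made up 55.9% ± 6.65 of the sum in the parental and 70.9% ± 3.80 in the BrM libraries (SD, n = 3 each, exact p = 0.1). The share of Ptger4 was 35.4% ± 11.1 and 29.0% ± 3.79 (exact p = 0.4). Ptger2 made up 7.68% ± 4.59 and 0.116% ± 0.101, and Ptger3 0.996% ± 0.807 and 0%. What receptor RNA remained in BrM was thus that of Ptger1 and Ptger4.

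**Figure D3:**
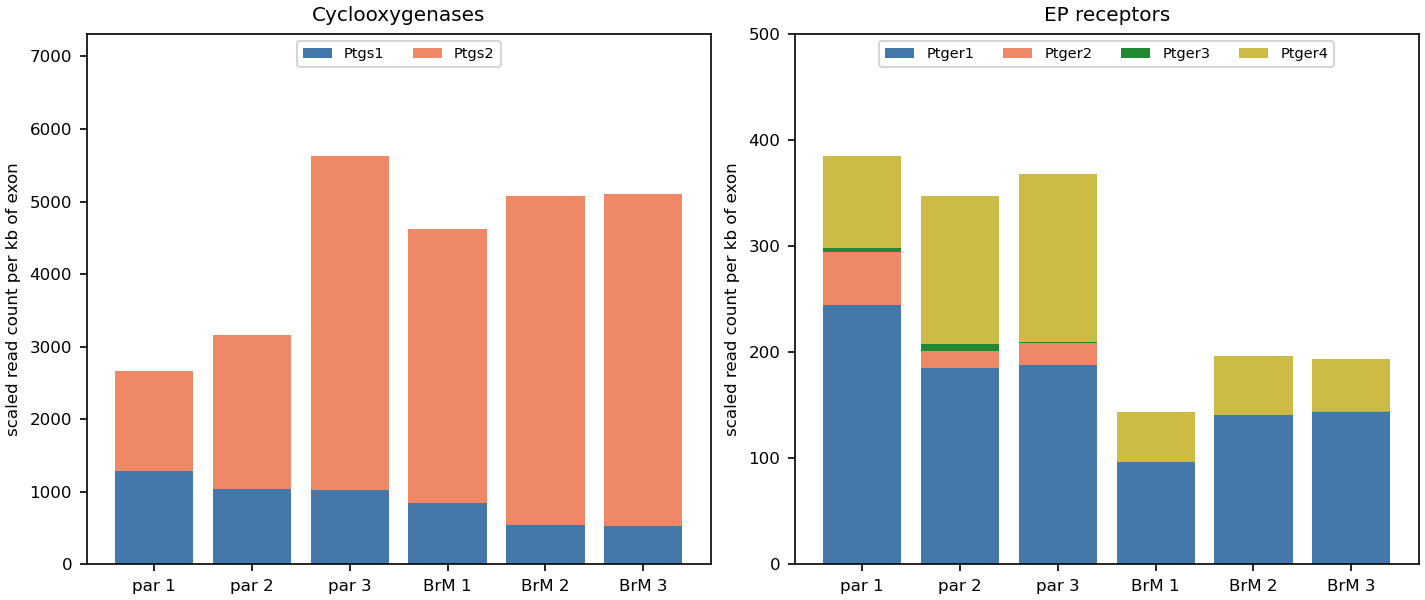
Scaled read count per kilobase of exon in each of the 6 libraries, stacked for the cyclooxygenases Ptgs1 and Ptgs2 on the left and for the 4 EP receptors on the right. Each bar is 1 library; the receptor bars reach 347 to 385 in the parental and 144 to 196 in the BrM libraries, and the cyclooxygenase bar of parental replicate 3 is the highest of the 6.

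Around the 10 genes, 13 lists of the surrounding pathway were counted, with 135 different genes tested. Of these, 60 were called, 16 higher and 44 lower, where 28.1% of all tested genes were called, 12.2% higher and 15.8% lower. The counts of single lists are to be read against those shares. The lists were written with earlier results of these data known, and Dusp1, Areg, Crem and Per1 stand in more than 1 list. Among the genes named below, Ptgds, Ptgis, Cysltr1 and Il1b reached the mean of 10 only through the BrM libraries. Ptgfr, Cyp2j9, Pde10a, Nr4a3, Gnai1, Ereg and Alox5 did so only through the parental ones. Their values and counts are a description and no support. The count dropped to 39 when either parental replicate 1 or parental replicate 2 was left out, and to 38 with BrM replicate 2 removed.

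Among 8 tested synthases for other prostanoids or other forms of prostaglandin E synthase, 2 rose, 2 fell and 4 were not called (median log2 fold change -0.23). The prostaglandin D synthase Ptgds rose from 8.77 ± 6.99 to 66.4 ± 18.6, 8.23-fold (adjusted p = 0.0145), or 5.42-fold without parental replicate 2. The prostacyclin synthase Ptgis rose from 3.00 ± 2.64 to 32.2 ± 20.1, 9.48-fold (adjusted p = 0.0295). Its call was lost without parental replicate 1, parental replicate 2, BrM replicate 2 or BrM replicate 3 (adjusted p 0.0518 to 0.0782), and it was 5.38-fold without parental replicate 3. Akr1c18, an aldo-keto reductase, fell from 659.8 ± 234 to 24.6 ± 26.3, 35.1-fold (adjusted p = 0.00369), or 61.8-fold without BrM replicate 1. The second microsomal prostaglandin E synthase, Ptges2, fell from 2533 ± 849 to 924 ± 302, 2.71-fold (adjusted p = 0.0209). That call was lost without parental replicate 1, parental replicate 3, BrM replicate 2 or BrM replicate 3 (adjusted p 0.0698 to 0.0728). Ptges3, another form in this list named after its values were seen, read 8907 ± 219 in the parental and 11712 ± 1518 in the BrM libraries. Its groups did not overlap. The 1.31-fold higher BrM mean was not called in limma (adjusted p = 0.0731) but was in DESeq2 (adjusted p = 0.0158).

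Of the other prostanoid receptors, 1 of 5 was tested. The rest had a mean under 10. Ptgir read 3.70 ± 1.64 in the parental and 14.7 ± 1.01 in the BrM libraries, and Tbxa2r 1.27 ± 0.667 and 9.65 ± 3.75. Both were higher in every BrM library. Ptgdr and Ptgdr2 had lower BrM means with groups that overlapped. These low values were not tested. Ptgfr, the receptor of prostaglandin F2 alpha, read 40.7, 23.9 and 7.55 in the parental libraries and 0 in all 3 BrM libraries. By a floor of 3 reads it was at least 23.2-fold lower, for counting error only, and limma called it lower (adjusted p = 0.00472). Its fitted fold moved from 20.7 to 32.2 without parental replicate 3.

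The later steps of removal moved both ways: of 6 tested genes, 2 rose, 1 fell and 3 were not called (median log2 fold change 0.13). Of the reductases that act after Hpgd, Ptgr2 rose from 992.5 ± 93.1 to 2057 ± 89.6, 2.08-fold (adjusted p = 0.00256), and Ptgr1 from 720.3 ± 161 to 1413 ± 222, 1.98-fold (adjusted p = 0.0200). The call of Ptgr1 was lost without parental replicate 1, parental replicate 3, BrM replicate 2 or BrM replicate 3 (adjusted p 0.0503 to 0.0803). The carrier Slco3a1 fell 4.06-fold, from 4333 ± 420 to 1197 ± 754 (adjusted p = 0.0120).

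Genes of lipid supply were counted next. Of 12 tested genes for arachidonate release, 1 rose, 2 fell and 9 were not called (median log2 fold change -0.09). The calcium-independent phospholipase Pla2g6 rose 2.11-fold, from 1248 ± 126 to 2680.0 ± 672 (adjusted p = 0.0102). The phospholipases C Plcg2 and Plcg1 fell 2.40-fold (adjusted p = 0.00533) and 1.74-fold (adjusted p = 0.0268), and the call of Plcg1 was lost without parental replicate 1, parental replicate 2, BrM replicate 2 or BrM replicate 3 (adjusted p 0.0902 to 0.101). Of 11 genes for re-esterification, 2 fell: the acyltransferase Mboat7 1.99-fold (adjusted p = 0.00534) and the acyl-CoA synthetase Acsl1 2.70-fold (adjusted p = 0.00717).

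The other uses of arachidonate were also counted. In the lipoxygenase and leukotriene branch 3 of 8 tested genes rose and 5 were not called (median log2 fold change 0.79). Of those 5, Alox12, Alox8 and Aloxe3 had higher means in BrM, and Alox5 and Mgst2 lower ones. Alox5, named after its values were seen, read 68.2, 21.4 and 1.89 in the parental libraries. In BrM it read 2.44, 0 and 0 (limma adjusted p = 0.0788, DESeq2 adjusted p = 0.0152). Leukotriene C4 synthase, Ltc4s, rose from 13.7 ± 4.89 to 707 ± 226, 48.3-fold (adjusted p = 0.000254). The leukotriene receptor Cysltr1 rose 9.78-fold, from 2.97 ± 1.70 to 37.3 ± 17.7 (adjusted p = 0.00742). Lta4h, leukotriene A4 hydrolase, rose 1.42-fold (adjusted p = 0.0300), a call that held only with all libraries or without BrM replicate 1 (adjusted p 0.0684 to 0.122 otherwise). Of 5 epoxygenase genes, 2 fell. Cyp2j6 fell from 646 ± 123 to 29.1 ± 16.1, 23.2-fold (adjusted p = 0.000698). Cyp2j9 had no BrM read and was at least 24.4-fold lower, for counting error only, and limma called it lower (adjusted p = 0.00198).

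Downstream of EP2 and EP4, 3 of 27 tested cyclic AMP genes rose and 8 fell (median log2 fold change -0.26). The phosphodiesterase Pde4b, which degrades cyclic AMP, fell from 4376 ± 694 to 152 ± 59.7, 29.7-fold (adjusted p = 0.000194). Pde10a, another phosphodiesterase, held 2 reads in BrM, both in replicate 1. Its ratio of pooled values was 249 (exact 95% interval 68.6 to 2062), and limma called it lower (adjusted p = 0.000573). Its fitted fold was 112, or 169 with BrM replicate 1 left out. The cyclase Adcy9 fell 2.76-fold (adjusted p = 0.00373). The protein kinase A subunit Prkar1b fell 78.8-fold, from 1361 ± 302 to 30.3 ± 40.3 (adjusted p = 0.00384), or 169-fold when BrM replicate 1 was left out and 49.6-fold when BrM replicate 2 was. The 3 that rose stand outside the naming rule and are named after their values were seen. They were the cyclase Adcy7 (2.18-fold, adjusted p = 0.0420), the phosphodiesterase Pde3b (4.48-fold, adjusted p = 0.0253) and the cyclic AMP sensor Rapgef3 (4.65-fold, adjusted p = 0.00755). The call of Adcy7 held only with all libraries or without BrM replicate 1 (adjusted p 0.0676 to 0.127 otherwise). That of Pde3b held only with all libraries, without BrM replicate 1 or without parental replicate 3 (0.0760 to 0.0909 as the adjusted p otherwise), and it was 6.73-fold without parental replicate 3. Cyclases and phosphodiesterases were thus among both the genes that fell and those that rose.

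Of 11 genes listed with the cyclic AMP response factor CREB, 6 fell and 1, Areg, rose (median log2 fold change -2.15). Crtc2, among the 6, is a coactivator of CREB rather than a target. Nr4a2, an orphan nuclear receptor, fell from 1935 ± 116 to 185 ± 26.3, 10.5-fold (adjusted p = 0.000128). Its relative Nr4a3 held 3 reads in BrM. The ratio of pooled values of Nr4a3 was 26.8 (exact 95% interval 8.87 to 132), and limma called it lower (adjusted p = 0.00380). The coactivator Ppargc1a fell 6.02-fold (adjusted p = 0.0111). The phosphatase Dusp1 fell 16.6-fold (adjusted p = 0.0168), or 31.3-fold without BrM replicate 1. Its call was lost without parental replicate 1, parental replicate 2, BrM replicate 2 or BrM replicate 3 (adjusted p 0.0511 to 0.0678).

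In the Gq and Gi arms used by EP1 and EP3, 1 of 13 tested genes rose and 4 fell (median log2 fold change -0.37). Plcb1, a phospholipase C activated by Gq, fell from 1453 ± 150 to 111 ± 42.5, 13.5-fold (adjusted p = 0.000415). The inhibitory G protein subunit Gnai1 fell 42.7-fold, from 83.3 ± 14.3 to 1.27 ± 1.46 (adjusted p = 0.00127), and the calcium channel Itpr2 fell 1.96-fold (adjusted p = 0.00716). Plcb3 rose 1.42-fold (adjusted p = 0.0265), a call that held only with all libraries or without BrM replicate 1 (adjusted p 0.0616 to 0.0872 otherwise).

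Upstream of Ptgs2, 8 of 17 genes of its transcription and mRNA decay fell and 9 were not called (median log2 fold change -0.44). Beside Cebpd and Cebpb, the RNA-binding protein Celf2 fell 2.51-fold (adjusted p = 0.00447) and the NF-kappa B subunit Nfkb1 fell 2.13-fold (adjusted p = 0.00917). Of 13 ligands and receptors that induce COX-2, 4 rose and 7 fell (median log2 fold change -0.98). The ligand Ereg fell from 4772 ± 1331 to 2.46 ± 2.13, 1660-fold (adjusted p = 0.000210), or 992-fold when BrM replicate 2 was left out, and the receptor Egfr fell from 3705 ± 655 to 916 ± 123, 4.02-fold (adjusted p = 0.000698). The interleukin-1 receptor Il1r1 fell 55.8-fold, from 751 ± 145 to 14.6 ± 10.2 (adjusted p = 0.000730), and the Toll-like receptor Tlr2 fell 12.3-fold (adjusted p = 0.00207). The 4 that rose were the ligands Tgfa, Il1a, Areg and Il1b. Of 7 genes of the glucocorticoid brake, 2 fell, Dusp1 and the kinase Sgk1, the latter 2.28-fold (adjusted p = 0.0104).

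**Figure D4:**
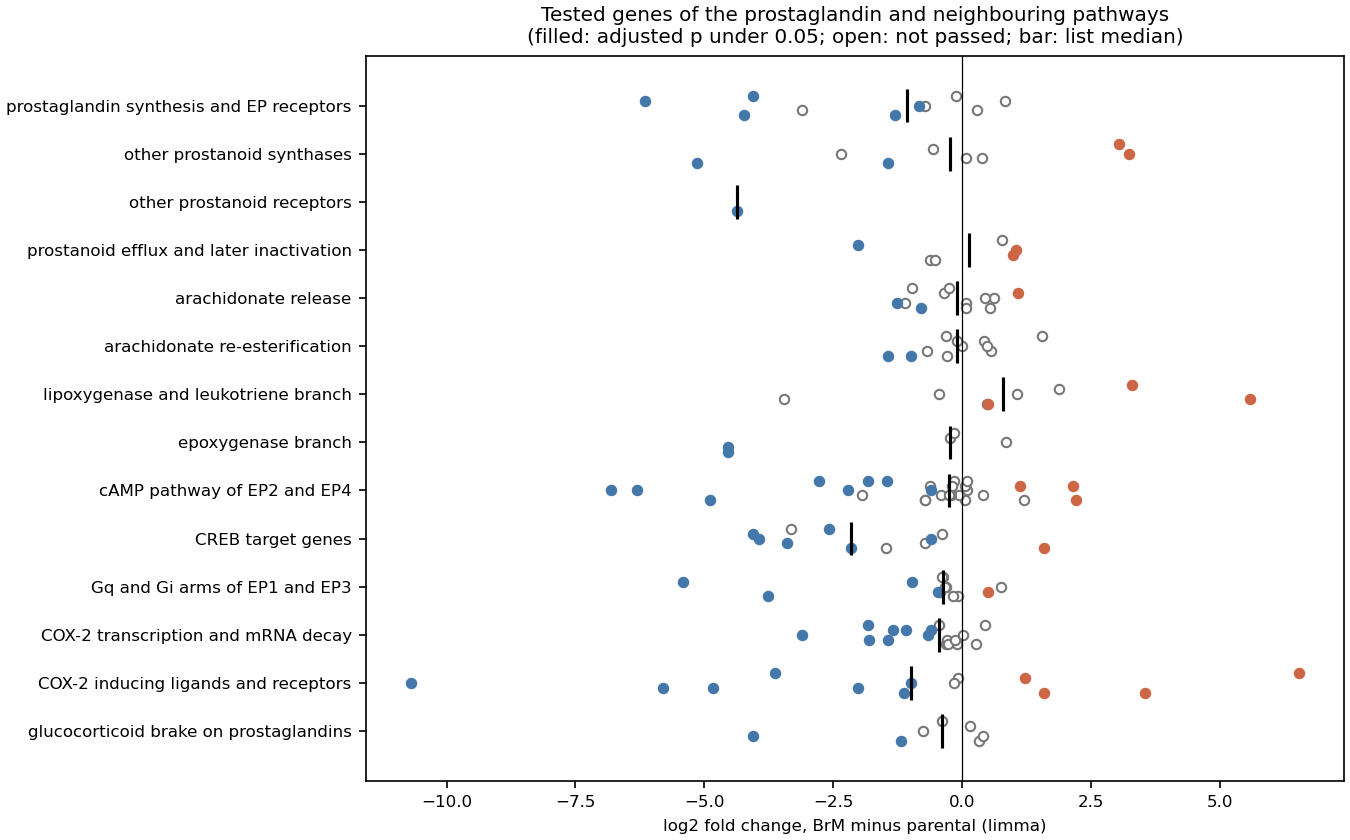
Log2 fold change (BrM minus parental) of the tested genes in the 10-gene set and in each of the 13 pathway lists. Each point is 1 gene, filled where called at an adjusted p under 0.05; CREB targets have the lowest median of lists with over 1 tested gene, -2.15, and the leukotriene branch the highest, 0.79.

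Over 10908 tested genes with a mean of at least 100, the profiles of Cyb5rl and Spns2 were among the 3 closest to that of Ptgs2 across the 6 libraries, at root mean square log2 differences of 0.160 and 0.180. Cyb5rl read 53.9, 75.0 and 127 in the parental libraries and 131, 170.3 and 152 in BrM. They were picked for that likeness, so the shared pattern is a description of the choice. Neither was called (adjusted p = 0.119 and 0.124).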

How the data were processed

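The deposited signal values are normalised read counts made by the authors. The submitters' processing notes name STAR, HTSeq and GRCm38, and the scaling tool is not given in the sources used here. Of the values above 0, 100% were whole reads to within 0.01 read, so reads were recovered. In R 4.3.3, limma 3.58.1 with an intensity trend tested BrM against parental, two-sided, on log2 of the value plus 1, for genes with a mean of at least 10, with Benjamini-Hochberg adjustment over 13821 genes at 0.05. Such fold changes understate the change of low genes. On recovered reads, edgeR 4.0.16 called 3753 genes and DESeq2 1.42.0 called 5075. Exact intervals and floors of 3 reads cover counting error only. Exon lengths came from GENCODE M21.

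The 10 genes and all lists were chosen with earlier results of these data known. Named genes are the 10, up to 4 called genes per list with the smallest p-values, and the 3 nearest in profile to Ptgs2. A few others, among them Alox5, Ptges3, Ptgir and Tbxa2r, were added after their values were seen. Results that need items withheld for evaluation are not reported here. Scripts were tested on simulated data. The alternatives were other pseudocounts, filters, scalings and moderation, a replicate block, edgeR, DESeq2 and leaving out each library. The 5 human HCC1954 libraries were not analysed here.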

Additional observations from a re-analysis of the deposited data

How the results depend on the processing

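With all 6 libraries, 3881 genes, 5 of the 10 prostaglandin genes and 60 pathway genes were called. Leaving out each library in turn gave 2191 to 6519 genes, 2 to 7 of the 10 and 38 to 77 pathway genes. A mean of at least 50 left 3 of the 10 called, since Hpgd and Ptger3 were no longer tested. Averaging BrM replicates 2 and 3, an alternative chosen after seeing the data, gave 2279 genes and 39 pathway genes. A replicate block on the 4 libraries numbered 1 and 2 gave 2029 genes and 4 of the 10, with Ptgs2 higher (adjusted p = 0.0160); without the block the same 4 libraries, also added after seeing the data, gave 1205 genes, 3 of the 10 and 20 pathway genes. Nothing ties the numbers to shared cultures, and same-numbered libraries correlated in their deviations at 0.30 and -0.09. The cause of these changes was not tested, beyond fewer libraries or genes. Upper-quartile scaling split the calls into 2228 higher and 1819 lower, against 1691 and 2190. Of 979 values for 52 genes chosen by the naming rule under 19 alternatives, 878 kept direction and side of the threshold, 92 lost the call, 9 gained one and none of the called reversed. Hpgd, Ptger2 and Ptger3 are limited by depth in BrM, where they hold 3 reads or fewer.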

Other observations

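Parental replicate 3 lay on the BrM side of the mean of the other parental libraries for 8 of the 10 prostaglandin genes, against 59.9% of all tested genes. Parental replicates 1 and 2 did so for 1 and 4 of the 10, against 51.0% and 51.8%. BrM replicate 1 lay on the parental side of the mean of the other BrM libraries for 5 of the 10, against 62.5%. Between parental replicates 1 and 3, Ptgs2, Ptges, Hpgd, Ptger2 and Ptger3 were at least 2-fold apart, as were 1683 of the 13821 tested genes. Hpgd held 8 reads and Ptger3 5 reads in parental replicate 3. The interleukin-1 ligand Il1a read 29.7 ± 28.2 in the parental and 4924 ± 7084 in the BrM libraries (SD, n = 3 each). It was called higher in BrM (limma adjusted p = 0.0107), where its SD was above its mean.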
